A study of Mus musculus with 3 samples.

Results

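Trdc-positive T cells of the mouse spleen were examined in 3 single-cell RNA libraries. A cell was a member when it held at least 1 UMI (a unique molecular identifier, one captured RNA molecule) of Trdc, the constant segment of the T cell receptor delta chain, and at least 2 UMIs of Cd3d, Cd3e and Cd3g together. It also had to hold 0 UMIs of Ncr1 (a natural killer cell receptor), Foxp3 (regulatory T cells), Cd79a and Cd79b (B cell receptor). The rule was applied to cells with at least 500 UMIs, at least 200 genes and under 10% mitochondrial UMIs, and it found 1037 members among 32509 such cells, of 35739 deposited barcodes. The IR+HSO library held 410 members, the IR library 529 and the Control library 98.

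All 3 libraries came from ground spleens of wild-type (WT) mice. IR+HSO mice received 8.5 Gy of irradiation and HSO, which the series title gives as hemp seed oil. IR mice received 8.5 Gy and an agent written "colvent control" in the label, and Control mice were not irradiated. Strain, age, the time after irradiation, the HSO dose and the number of mice per library are not given in the sources used here, and each group is 1 library, so that a difference between groups cannot be told apart from a difference between libraries. No test was therefore made between groups: their values are given with exact 95% intervals that cover counting error only.

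Gamma-delta T cells carry a receptor built from a rearranged gamma chain and a rearranged delta chain, in place of the alpha and beta chains of conventional T cells. The delta locus lies inside the alpha locus, and the mouse gamma locus has several clusters of variable (Trgv) segments, each with its own constant (Trgc) segment. In mouse lymphoid organs these cells are a minority of T cells and are known for an interferon-gamma-producing type, which carries CD27 and NK receptors, and an IL-17-producing type, which depends on transcription factors that include those encoded by Sox13 and Maf. NK cells can transcribe Trdc without making a receptor.

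The libraries held 45636807 UMIs in IR+HSO, 50836313 in IR and 47298108 in Control. The median member had 4155.5 UMIs in IR+HSO, 3808 in IR and 4872 in Control, and the other CD3-positive cells, chosen by the same rule but with 0 Trdc UMIs, had medians of 3314, 3356 and 5224. Between 34 and 54 cell barcodes were shared by any 2 libraries, and none of them belonged to a member in both. The low-quality filter removed 2125 barcodes from IR+HSO, 655 from IR and 450 from Control. Pancreatic acinar genes, which spleen does not express, summed to 2848 CPM (UMI counts scaled to the same total in every set of cells) in IR+HSO members, 906 in IR members and 0 in Control members, with all 13 listed genes seen in both irradiated libraries. In IR+HSO, 1 member held 4115 of the 5242 acinar UMIs, and without it the sum was 615 CPM. Immunoglobulin and other plasma cell genes summed to 3009, 2757 and 670 CPM in the members of IR+HSO, IR and Control, against 469580, 489944 and 32785 CPM in B cells of the same libraries. The part of such RNA in the results was not tested. H2-Aa, an MHC class II gene, had a UMI in 23.2%, 36.6% and 96.4% of B cells of IR+HSO, IR and Control. Plasma cell genes held much of the B cell UMIs in both irradiated libraries, which lowers the CPM of other genes in those B cells. The B cell set is therefore not the same background in each library.

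The label of the cells was checked against Cd3e, Trgc2 and Klrk1, of which Cd3e entered the rule. Cd3e, a signalling chain of the T cell receptor complex, had a UMI in 79.8% of IR+HSO, 77.3% of IR and 93.9% of Control members. Trgc2, a gamma constant segment, had a UMI in 33.4%, 30.8% and 33.7% of the members of IR+HSO, IR and Control, against 5.34%, 6.70% and 1.69% of other T cells and 2.66%, 0.647% and 0.0761% of B cells. Klrk1, which encodes the NK receptor NKG2D, was seen in 25.9%, 24.8% and 7.14% of members of IR+HSO, IR and Control. B cells held Klrk1 in 20.9%, 15.5% and 3.22% at median depths of 5418, 4850 and 3679.5 UMIs. This set was not required to lack Ncr1, and NK cell marker genes summed to 778, 552 and 411 CPM in it. It is therefore not a clean background for NK receptor genes. The members' Klrk1 share was above that of B cells in every library. The exact intervals of members and B cells overlapped in IR+HSO (21.7 to 30.4% and 16.2 to 26.3%). They also overlapped in Control (2.92 to 14.2%, from 7 of 98 members, and 2.69 to 3.82%), but not in IR (21.1 to 28.7% and 11.7 to 20.1%). Klrk1 was a weak marker here, and the part of free RNA in its shares was not tested.

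Because the gamma constant segments carry much of what follows, the first 120 bases of their first exons are shown with those of Trdc, read on GRCm38 from the GENCODE vM21 annotation (the deposited counts were made on GRCm39, so these coordinates apply to GRCm38 only). Capitals mark bases of Trgc2 and Trgc4 that differ from Trgc1; Trdc is another gene and was not aligned. Trgc1 lies at chr13:19214103-19214222 (plus strand), Trgc2 at chr13:19307432-19307551 (minus strand), Trgc4 at chr13:19344558-19344677 (plus strand) and Trdc at chr14:54142851-54142970 (plus strand).
Trgc1: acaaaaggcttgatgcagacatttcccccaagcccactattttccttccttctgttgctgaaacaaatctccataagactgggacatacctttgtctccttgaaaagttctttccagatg
Trgc2: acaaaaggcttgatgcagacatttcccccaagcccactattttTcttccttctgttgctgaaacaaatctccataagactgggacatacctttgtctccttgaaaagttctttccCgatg
Trgc4: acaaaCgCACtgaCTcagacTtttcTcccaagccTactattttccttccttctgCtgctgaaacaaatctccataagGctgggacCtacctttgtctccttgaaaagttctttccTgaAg
Trdc: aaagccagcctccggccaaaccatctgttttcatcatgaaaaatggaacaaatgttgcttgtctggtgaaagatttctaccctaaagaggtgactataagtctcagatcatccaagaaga
Trgc1 and Trgc2 differed at 2 of these bases and at 9 of the 330 bases of the exon (97.3% identity), whereas Trgc4 differed from Trgc1 at 59 of 330 (82.1%). Only first exons were compared, and where the counted reads fall on these genes was not examined. The split of UMIs between Trgc1, Trgc2 and Trgc4 was thus not tested and is treated as uncertain.

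Members ranged between cells with 4 or more Trdc UMIs, most of which held gamma chain RNA, and cells with a single Trdc UMI, most of which held Trac. Trac, the alpha constant segment, had a UMI in 162 of 410 IR+HSO members (39.5%), 268 of 529 IR members (50.7%) and 62 of 98 Control members (63.3%). Cd8a, a chain of the CD8 coreceptor, had a UMI in 37 IR+HSO members (9.02%), 43 IR members (8.13%) and 18 Control members (18.4%). Trac or Cd8a or both were held by 173 IR+HSO members (42.2%, exact interval 37.4 to 47.1%), 283 IR members (53.5%, 49.1 to 57.8%) and 65 Control members (66.3%, 56.1 to 75.6%). These shares were below the 73.0%, 75.5% and 92.2% of other T cells in IR+HSO, IR and Control, and above the 12.5%, 10.0% and 6.14% of B cells. After each cell was thinned to 1000 UMIs, which left out 4 IR+HSO, 7 IR and no Control members, 17.7%, 26.1% and 29.6% of members held Trac or Cd8a, so at equal depth the IR and Control shares lay closer together than in the unthinned counts. For Trac alone the thinned shares were 15.3% in IR+HSO, 24.1% in IR and 22.4% in Control, so that the order of IR and Control was not that of the unthinned counts.

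The share with Trac fell with the number of Trdc UMIs in every library. Among members with 1 Trdc UMI, Trac was seen in 58.8% of IR+HSO, 71.0% of IR and 75.0% of Control cells, against 70.6%, 74.3% and 88.7% of T cells with no Trdc UMI. With 2 or 3 Trdc UMIs it was seen in 31.7% of IR+HSO, 39.5% of IR and 70.6% of Control members, the last being 12 of 17 cells. Among members with 4 or more, it was seen in 29 of 136 IR+HSO cells (21.3%), 49 of 170 IR cells (28.8%) and 23 of 45 Control cells (51.1%), and after thinning in 3.68%, 9.41% and 11.1%. Any Trgv or Trgc segment ran the other way. It was found in 36.5% of IR+HSO, 28.2% of IR and 16.7% of Control members with 1 Trdc UMI, in 75.0%, 67.5% and 29.4% of those with 2 or 3, and in 93.4% (interval 87.8 to 96.9%), 88.8% (83.1 to 93.1%) and 82.2% (67.9 to 92.0%) of those with 4 or more. T cells with no Trdc UMI held a gamma segment in 15.0%, 17.7% and 3.0% of cells. B cells of IR+HSO, IR and Control held one in 12.9%, 5.83% and 0.254%, and the part of free RNA in these shares was not tested. A Trgc and a Trdv segment together were held by 22.8% of IR+HSO, 11.8% of IR and 22.2% of Control members with 4 or more. Most members with 4 or more Trdc UMIs thus held a gamma segment, whereas most of those with 1, and in Control most of those with 2 or 3, held Trac. The gamma-delta label did not hold for all members, and the cells are called Trdc-positive T cells here.

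**Figure D1:**
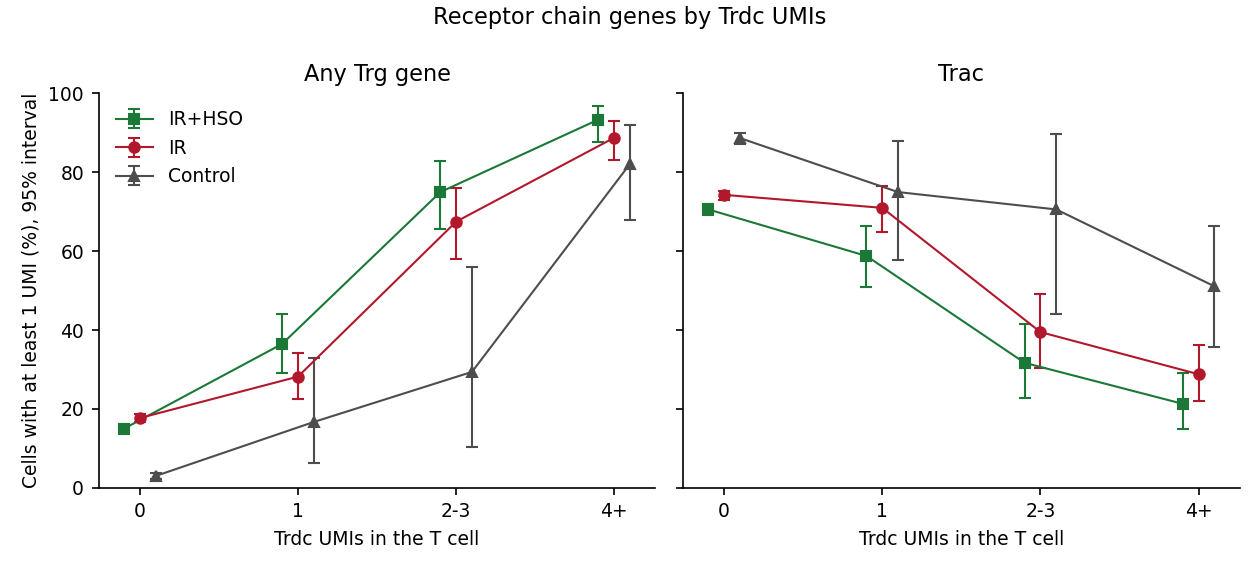
Share of T cells (%) with at least 1 UMI of any gamma segment and of Trac, by Trdc UMIs per cell (0, 1, 2 to 3, 4 or more), in the IR+HSO, IR and Control libraries; bars are exact 95% intervals of counting error. The gamma share reaches 93.4%, 88.8% and 82.2% at 4 or more Trdc UMIs, where the Trac share is 21.3%, 28.8% and 51.1%.

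Counted by cell, a gamma segment without Trac was held by 196 IR+HSO members (47.8%), 195 IR members (36.9%) and 28 Control members (28.6%). Trac without a gamma segment was held by 91 (22.2%), 166 (31.4%) and 42 (42.9%) members of these libraries. Both were held by 71, 102 and 20 members, and neither by 52, 66 and 8. At 4 or more Trdc UMIs, gamma without Trac was the main class in the irradiated libraries, at 99 of 136 IR+HSO cells (72.8%) and 110 of 170 IR cells (64.7%), against 20 of 45 Control cells (44.4%). A doublet caller marked 51 of 410 IR+HSO, 84 of 529 IR and 2 of 98 Control members. Among all T cells of these libraries, members included, it marked 324 of 4812, 517 of 6155 and 34 of 2231. Among all filtered cells it marked 896 of 10585, 1322 of 12854 and 658 of 9070. The marked cells were kept, and the part of doublets in the members with both chains was not tested.

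The Trdc threshold itself cut through a continuum. Members with exactly 1 Trdc UMI numbered 170 in IR+HSO, 245 in IR and 36 in Control, and those with exactly 2 numbered 58, 67 and 7. Another 39, 54 and 3 cells held Trdc but only 1 CD3 UMI, just outside the rule, whereas 41, 34 and 0 members held exactly 2. Before the exclusions 633, 823 and 188 cells passed; 113, 211 and 16 of them held Ncr1, 80, 53 and 6 held Foxp3, and 66, 74 and 74 held Cd79a or Cd79b. The median member held 2 Trdc UMIs in IR+HSO, 2 in IR and 3 in Control.

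Members made up a larger share of T cells in both irradiated libraries than in Control, and the gap was smaller for cells with several Trdc UMIs. They were 8.52% (interval 7.75 to 9.34%) of 4812 T cells in IR+HSO, 8.59% (7.91 to 9.32%) of 6155 in IR and 4.39% (3.58 to 5.33%) of 2231 in Control. The ratio of shares was 1.94 (1.55 to 2.44) for IR+HSO over Control, 1.96 (1.57 to 2.45) for IR over Control and 0.991 (0.869 to 1.13) for IR+HSO over IR. Thinned to 1000 UMIs per cell, they were 4.65% in IR+HSO, 4.99% in IR and 2.64% in Control. With at least 4 Trdc UMIs, a threshold added after the data were seen, the shares were 2.83%, 2.76% and 2.02% in IR+HSO, IR and Control, and the ratios to Control were 1.40 (0.994 to 2.01) for IR+HSO and 1.37 (0.981 to 1.95) for IR, so that at this threshold a difference from Control was not detectable at this depth. A Trdc UMI was seen in 3.8% of IR+HSO, 5.18% of IR and 1.5% of Control B cells. B cells should lack it, although this set was not required to lack Ncr1. At least 4 Trdc UMIs were seen in 0 B cells of any library, which allows shares of up to 1.39%, 1.19% and 0.0935% by the exact interval. NK cells, which can transcribe Trdc, held at least 1 Trdc UMI more often, in 15.9% of IR+HSO, 18.2% of IR and 29.2% of Control cells. They held at least 4 in 0.101%, 0.0681% and 0.858%. The part of NK cells without an Ncr1 UMI among the members was not tested.

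**Figure D2:**
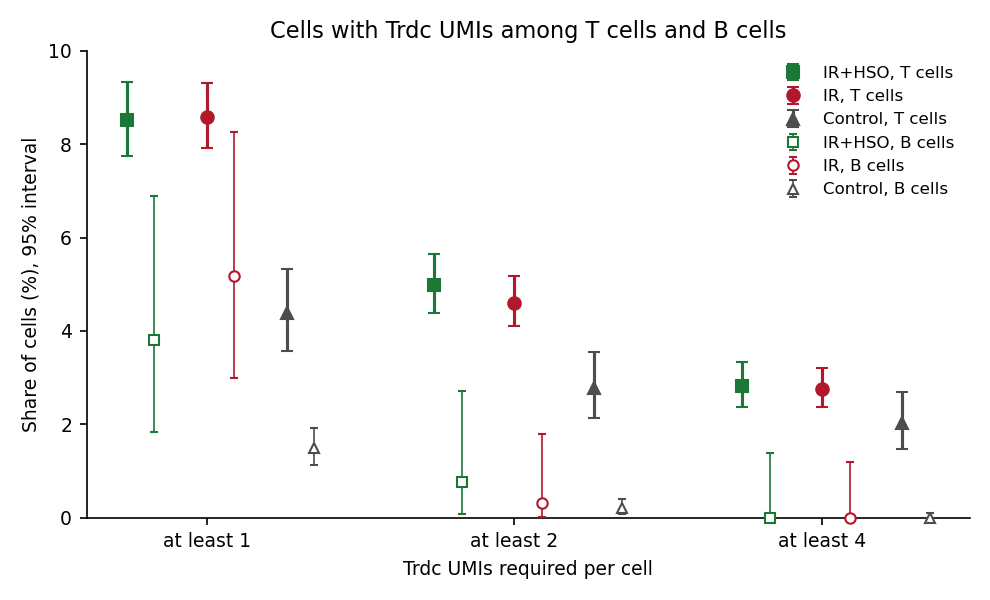
Share (%) of T cells (filled points) and of B cells (open points) with at least 1, at least 2 and at least 4 Trdc UMIs in the IR+HSO, IR and Control libraries, with exact 95% intervals of counting error. At 1 UMI the T cell shares are 8.52%, 8.59% and 4.39%; at 4 UMIs they are 2.83%, 2.76% and 2.02%, with no B cell.

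As a share of all filtered cells, members were 3.87% in IR+HSO, 4.12% in IR and 1.08% in Control. This larger gap came with a change in the other cells: B cells numbered 263 in IR+HSO and 309 in IR, against 3942 in Control. Shares of cells in a suspension do not give cell numbers in the spleen, and a lower summed level can come from fewer positive cells or from less RNA per cell, which the sums below do not tell apart.

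Among variable segments, Trgv2 was the one most often seen. It had a UMI in 127 IR+HSO members (31.0%), 124 IR members (23.4%) and 25 Control members (25.5%), and in 52.9%, 42.9% and 42.2% of those with 4 or more Trdc UMIs, against at most 0.380% of B cells. Trgv4 was held by 29, 34 and 7 members and Trgv1 by 21, 44 and 11. Trgv5, Trgv6 and Trgv7 were each held by 3 or fewer members per library. At least 2 different Trgv segments were seen in 34 IR+HSO, 37 IR and 10 Control members, against 115, 126 and 23 with exactly 1. Members with Trgv2 held Trgc2 in 59.8%, 63.7% and 76.0% of cells in IR+HSO, IR and Control, against 21.6%, 20.7% and 19.2% of members without it, but Trgc1 and Trgc4 were likewise more frequent beside Trgv2, so no single pairing stood out. Delta variable segments were sparser. Any Trdv segment was seen in 60 IR+HSO members (14.6%), 41 IR members (7.75%) and 16 Control members (16.3%). Trdv1 was seen in 17, 4 and 5 members and Trdv5 in 22, 11 and 6.

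To describe the members against the rest of the T cells, their UMIs were summed per library and set against those of the T cells with 0 Trdc UMIs, with the 3 libraries as replicates and the library as a block (edgeR's quasi-likelihood test, two-sided, Benjamini-Hochberg adjusted over 12948 genes, threshold 0.05). At that threshold 120 genes were higher in members (0.927%) and 58 were lower (0.448%). Genes that the rule used are left out. Where members are counted over a list, the count is a description, and a gene could be tested only if its counts passed edgeR's filter.

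Of the lists, the gamma and delta chain genes had the largest median excess. Of the 9 tested among 17 listed, 8 were higher and none lower, with a median log2 fold change of 2.98 against -0.01 over all genes. Trgc4 was at 173 CPM in IR+HSO, 136 in IR and 141 in Control members, against 17.9, 23.9 and 3.30 CPM in other T cells (log2 fold 3.33, SE 0.33, edgeR adjusted p = 0.000677). Trgc2 was at 135, 125 and 145 CPM in members, against 23.2, 29.1 and 4.86 in other T cells (2.81, SE 0.34, edgeR adjusted p = 0.00153). Members exceeded other T cells in every library for both genes. Trgv2 was at 141, 80.4 and 112 CPM in members, against 17.6, 18.3 and 3.99 (2.97, SE 0.31, edgeR adjusted p = 0.000815), and Trgv1 at 13.0, 21.7 and 25.5, against 0.921, 2.09 and 0.26 (4.02, SE 0.47, edgeR adjusted p = 0.00149). Trgc1 was at 125, 120 and 45.2 CPM in members, against 24.7, 42.6 and 1.74 (2.16, SE 0.31, edgeR adjusted p = 0.00527), a call that DESeq2's Wald test did not make. Trdc-negative T cells of the irradiated libraries also held gamma RNA, and for these 5 genes the ratio of members to other T cells was largest in Control.

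Of 6 listed chains and coreceptors of alpha-beta T cells, 3 were lower and none higher. Trac was at 215, 348 and 328 CPM in members of IR+HSO, IR and Control, against 479, 592 and 628 in other T cells (-0.99, SE 0.09, edgeR adjusted p = 0.000618). Cd4 was at 77.1, 103 and 76.6 CPM in members, against 193, 170 and 157 (-1.04, SE 0.12, edgeR adjusted p = 0.00149), and Cd8b1 at 47.3, 32.6 and 214, against 82.4, 67.9 and 392 (-0.96, SE 0.10, edgeR adjusted p = 0.000677). Cd8a, with a log2 fold of -0.50, did not pass (edgeR adjusted p = 0.159). The beta constant segments did not pass either. Trbc1 was at 644, 840 and 1088 CPM in members, against 750, 956 and 843 in other T cells (-0.07, SE 0.10, edgeR adjusted p = 0.911), and Trbc2 at 937, 1472 and 1612, against 1246, 1719 and 1642 (-0.27, SE 0.09, edgeR adjusted p = 0.25). Trbc1 or Trbc2 had a UMI in 91.5% of IR+HSO, 95.8% of IR and 98.0% of Control members, against 94.9%, 96.5% and 98.8% of other T cells and 38.8%, 41.7% and 16.3% of B cells. At 4 or more Trdc UMIs the members' shares were 94.9%, 96.5% and 97.8%, so most members of either set held beta chain RNA. With members limited to at least 4 Trdc UMIs the log2 folds were larger, at -2.30 for Trac and -2.40 for Cd4, against 4.10 for Trgc4 and 3.46 for Trgc2. The costimulators and modulators of alpha-beta T cell signalling Cd5, Cd6, Cd28 and Icos also fell in members, by 0.70, 0.69, 0.61 and 1.13 on the log2 scale.

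Receptors of NK cells made up the list with most higher genes. Of 22 tested among 24 listed, 11 were higher and none lower, with a median log2 fold of 1.14. They were Klrk1, Klrd1, Klrc1, Klrc2, Klre1, Klrb1a, Klrb1c, Klri1, Klri2, Cd244a and Cd160, and none of the Ly49 genes (Klra family) passed. Klrc1, which encodes the inhibitory receptor NKG2A, was at 155 CPM in IR+HSO, 117 in IR and 74.6 in Control members, against 39.0, 38.2 and 7.46 CPM in other T cells (2.04, SE 0.20, edgeR adjusted p = 0.000677). Klrd1, the CD94 partner of NKG2 chains, was at 292, 212 and 220, against 94.3, 101 and 103 (1.25, SE 0.12, edgeR adjusted p = 0.000677). Both were higher in members of all 3 libraries. Cd160 was at 172, 159 and 149, against 48.3, 73.3 and 24.8 (1.70, SE 0.19, edgeR adjusted p = 0.00114). Klrk1 had a smaller excess, at 155, 164 and 53 CPM against 87.0, 103 and 24.5 (0.78, SE 0.10, edgeR adjusted p = 0.00246), with 110, 67.5 and 33.5 CPM in B cells. The NK cell marker list, of which 7 of 8 genes were seen and Ncr1 was at 0 by the rule, summed to 617, 574 and 300 CPM in members, against 315, 434 and 120 in other T cells and 11582, 15937 and 17357 in NK cells.

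In the list of genes of the interferon-gamma type 7 of 14 were higher and none lower, with a median log2 fold of 0.86. Ccl5, a chemokine of effector lymphocytes, was at 4649 CPM in IR+HSO, 3909 in IR and 2243 in Control members, against 1531, 1442 and 539 in other T cells (1.65, SE 0.11, edgeR adjusted p = 6.16e-05) and 915, 718 and 293 in B cells. Eomes, a transcription factor of cytotoxic lymphocytes, was at 37.5, 49.1 and 82.5, against 14.9, 15.8 and 34.2 (1.40, SE 0.13, edgeR adjusted p = 0.000677). Nkg7, a cytotoxic granule protein, was at 955, 953 and 520, against 422, 523 and 290 (0.93, SE 0.10, edgeR adjusted p = 0.000740). Tbx21, which encodes T-bet, had a log2 fold of 0.59 and Ifng one of 0.37, and neither passed (edgeR adjusted p = 0.146 and 0.394), although both passed with members of at least 4 Trdc UMIs.

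Defining genes of the IL-17 type were seen at few UMIs or at none. Il17a had 0 UMIs in members of any library, and Sox13 had 1, 2 and 0 UMIs in IR+HSO, IR and Control members. Maf, a regulator of that type which many CD4 T cells also express, was lower, at 101, 111 and 41.2 CPM in members, against 256, 161 and 96.0 in other T cells (-0.99, SE 0.15, edgeR adjusted p = 0.00805). Of 13 tested among the 18 genes of the IL-17 list, 2 were higher, namely the scavenger receptors Scart1 (2.31, SE 0.43, edgeR adjusted p = 0.0278) and Scart2 (1.97, SE 0.35, edgeR adjusted p = 0.0219), and 2 lower, Maf and Rora (-0.54, SE 0.11, edgeR adjusted p = 0.0483). Without the IR library the calls of Scart1 and Rora were lost, and without IR+HSO that of Rora.

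Beyond these groups, Cd7, a surface protein of T and NK cells, was at 289, 263 and 462 CPM in members, against 57.9, 62.5 and 47.9 in other T cells (2.47, SE 0.16, edgeR adjusted p = 6.16e-05). It was the 1 higher gene past the threshold when the library block was dropped. Fcer1g, an adaptor of NK and innate-like receptors, was at 160, 122 and 45.2, against 56.2, 68.3 and 32.5 (1.03, SE 0.17, edgeR adjusted p = 0.0116), with 201, 143 and 140 CPM in B cells. It had a UMI in 24.9%, 21.9% and 8.16% of members, below the 27.8%, 26.9% and 8.50% of B cells, a set not required to lack Ncr1. The part of free RNA in the members' Fcer1g values was not tested. Nrp1, a receptor found on regulatory and activated T cells, was at 23.9, 16.1 and 5.89, against 86.5, 34.8 and 17.4 (-1.53, SE 0.18, edgeR adjusted p = 0.00144). H2-Aa, a chain of MHC class II, was at 5.98, 6.95 and 39.3 CPM, against 16.6, 25.8 and 160 (-1.91, SE 0.17, edgeR adjusted p = 0.000593), and Cd74, its invariant chain, at 31.0, 29.6 and 134, against 56.1, 79.9 and 360 (-1.31, SE 0.13, edgeR adjusted p = 0.000693). The B cell marker list moved with them, at 59.2, 70.0 and 310 CPM in members, against 95, 146 and 724 in other T cells, with Cd79a and Cd79b at 0 by the rule, and its part in this difference was not tested. No gene among 21 p53 targets and none among 20 proliferation genes passed in either direction.

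Against NK cells (Ncr1-positive with 0 CD3 UMIs, 986 in IR+HSO, 1468 in IR and 233 in Control), members differed more widely: of 10238 genes tested, 976 were higher in members (9.53%) and 980 lower (9.57%) by the same edgeR test. This comparison shares its members and libraries with that against other T cells. Trdc itself, used by the rule, was at 743, 774 and 1053 CPM in members, against 46.0, 73.9 and 99.6 CPM in NK cells. Of the gamma and delta chain genes 9 of 17 were tested, of which 7 were higher and 1 lower. Trgv2 was at 141, 80.4 and 112 CPM in members, against 2.23, 0.432 and 0 in NK cells (log2 fold 6.57, SE 0.28, edgeR adjusted p = 2.77e-07). Trgc4 was at 173, 136 and 141, against 54.7, 44.1 and 4.24 (1.99, SE 0.30, edgeR adjusted p = 0.000919). The exception was Trdv4, at 2.17, 5.65 and 0 CPM in members, against 25.5, 26.2 and 24.4 in NK cells (-2.79, SE 0.38, edgeR adjusted p = 0.000486), so that NK cells held constant delta RNA and this variable segment, but little Trgv2.

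Most NK receptor genes, higher in members than in other T cells or not, were lower than in NK cells. Of 24 tested, 19 were lower and none higher, with a median log2 fold of -3.04. Cd160, at 172, 159 and 149 CPM in members, against 218, 240 and 163 in NK cells, did not pass (-0.33, SE 0.13, edgeR adjusted p = 0.108). Klrk1 was at 155, 164 and 53 CPM in members, against 998, 1276 and 1453 in NK cells (-3.19, SE 0.28, edgeR adjusted p = 2.57e-05), and the Ly49 gene Klra4 at 23.4, 15.2 and 3.93, against 508, 835 and 1138 (-5.39, SE 0.33, edgeR adjusted p = 1.99e-06). Klrd1 had the smaller difference of -1.89 (SE 0.22, edgeR adjusted p = 0.000187). Among cytotoxic genes 9 of 11 tested were lower. Prf1, which encodes perforin, was at 61.9, 56.9 and 72.7, against 712, 974 and 1147 (-3.80, SE 0.16, edgeR adjusted p = 2.77e-07).

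Genes of naive and conventional T cells were higher in members than in NK cells. In the naive list 10 of 12 genes were higher, among them Lef1, a transcription factor of resting T cells, at 228, 379 and 568 CPM in members, against 44.5, 58.4 and 91.1 in NK cells (2.62, SE 0.13, edgeR adjusted p = 6.79e-07), and Ccr7, a lymph node homing receptor (4.30, SE 0.28, edgeR adjusted p = 3.70e-06). Bcl11b, a T cell commitment factor, had a log2 fold of 3.67 (SE 0.16, edgeR adjusted p = 3.32e-07), and Themis, a protein of T cell receptor signalling, one of 4.81 (SE 0.23, edgeR adjusted p = 5.30e-07). Trac was at 215, 348 and 328, against 21.8, 23.8 and 12.7 (3.82, SE 0.20, edgeR adjusted p = 9.11e-07). With members that held no Trac, Cd4, Cd8a or Cd8b1 UMI its sign turned to -8.39, which follows from that choice of cells.

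**Figure D3:**
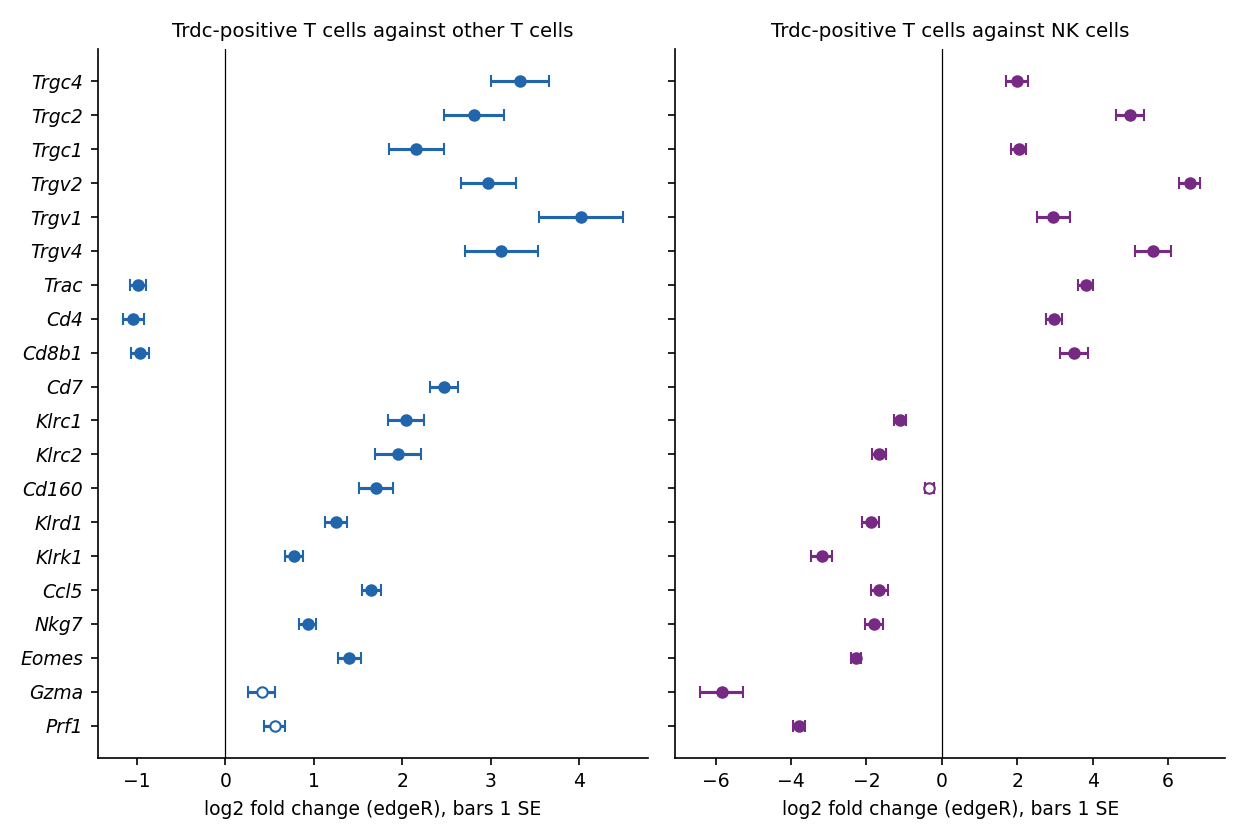
Log2 fold change of members over other T cells and of members over NK cells, by edgeR with the library as block, with bars of 1 standard error (SE), for named receptor chain, NK receptor and effector genes; filled points have an adjusted p under 0.05 and open points do not. Cd7 is shown only against other T cells. Gamma chain genes lie to the right in both comparisons, and the 5 NK receptor genes to the right against other T cells and to the left against NK cells, where Cd160 is open.

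Levels were then set side by side between groups, with the members' UMIs summed per library (1840712 in IR+HSO, 2301183 in IR and 509185 in Control), so that 1 UMI was worth 0.543, 0.435 and 1.96 CPM. A gene was measured where its mean over the 3 libraries reached 20 CPM, and counted as higher or lower past a 2-fold ratio of CPM + 10, a prior that understates changes of low genes. Of 6130 genes measured, 193 (3.15%) were higher and 46 (0.750%) lower in IR over Control. In IR+HSO over Control 242 (3.95%) were higher and 76 (1.24%) lower, and in IR+HSO over IR 36 (0.587%) were higher and 39 (0.636%) lower. In other T cells 3.49% of 6038 genes passed 2-fold in either direction in IR over Control, 4.70% in IR+HSO over Control and 1.47% in IR+HSO over IR. The comparisons share libraries. A gene that passed the measure through 1 library had to differ, so counts over lists are descriptions.

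Targets of p53, the factor that responds to DNA damage, were in many cases higher in both irradiated libraries. In IR over Control 7 of 16 measured of 21 listed were higher and none lower (median log2 ratio 0.93, against 0.03 over all genes), and in IR+HSO over Control 9 of 16 (1.10). Cdkn1a, the gene of the cell cycle inhibitor p21, had 265 UMIs in IR+HSO members, 431 in IR members and 0 in Control members. This is 144, 187 and 0 CPM, at least 24.4-fold higher in IR+HSO and at least 31.8-fold higher in IR than the level of 3 UMIs in the Control library, and it was seen in 33.9% and 38.6% of members, against 0 of 98, which allows up to 3.69% by the exact interval. Phlda3, an inhibitor of Akt, was at 67.9, 83.9 and 0 CPM. Bax, a pro-apoptotic protein, was at 406, 464 and 106 (IR over Control 4.37, interval 3.33 to 5.86), and Zmat3 at 109, 85.2 and 13.7 (6.20, interval 2.95 to 15.6). Ccng1, Bbc3 and Polk were also higher, although Bbc3 was under 2-fold in IR over Control at 4 or more Trdc UMIs (log2 ratio 0.75) and Polk among members without Trac, Cd4, Cd8a or Cd8b1 (0.34), while Mdm2, the negative regulator of p53, was at 80.4, 84.7 and 53 CPM and did not reach 2-fold. Other T cells showed the same group: 11 of 16 were higher in IR over Control, with Cdkn1a at 156, 229 and 1.21 CPM.

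Bcl2, an anti-apoptotic gene, was at 1619 CPM in IR+HSO, 1316 in IR and 300 in Control members (IR over Control 4.38, interval 3.72 to 5.19), and at 1519, 1319 and 239 in other T cells. It was the 1 gene of 8 measured anti-apoptotic genes past 2-fold. Proliferation genes were higher in IR over Control in 9 of 11 measured of 20 (median 1.32). Mki67, a marker of cycling cells, was at 94.5, 120 and 0 CPM, carried by 23 IR+HSO and 46 IR members and no Control member, and Top2a, a topoisomerase of dividing cells, at 75.0, 155 and 0. Among members without Trac, Cd4, Cd8a or Cd8b1, 2 of 9 measured proliferation genes were higher and 1 lower, with 25 such Control cells.

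Interferon-stimulated genes were higher in IR over Control in 8 of 19 measured of 24 (median 0.75; 5 of 19 in other T cells) and in IR+HSO over Control in 5 of 19. Ifit3, an interferon-induced antiviral protein, was at 78.2, 53.9 and 9.82 CPM in IR+HSO, IR and Control (IR over Control 5.49, interval 2.29 to 17.2), and Mx1, another, at 53.2, 44.3 and 9.82 (4.51, interval 1.87 to 14.2). The Control values rest on 5 UMIs each. Cxcl10, an interferon-induced chemokine, was at 34.8, 61.7 and 0 CPM.

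Effector genes were mixed. Gzmb, a granzyme, was at 256 CPM in IR+HSO, 218 in IR and 0 in Control members, at least 43.4-fold and at least 37.0-fold higher than the level of 3 Control UMIs, against 77.1, 64.8 and 8.27 CPM in B cells. Gzma, at 250, 263 and 11.8 CPM, was below its level in B cells in every library (501, 332 and 247), and the part of free RNA in its difference between libraries was not tested. It had a UMI in 27.8%, 50.9% and 6.12% of members, below the 35.7%, 51.8% and 6.29% of B cells. The B cell set was not required to lack Ncr1 and had more UMIs per cell than members in both irradiated libraries. Il2rb, the shared IL-2 and IL-15 receptor chain, was at 844, 554 and 259 CPM (IR over Control 2.14, interval 1.79 to 2.58), a difference under 2-fold among members with 4 or more Trdc UMIs (log2 ratio 0.88) and among those without Trac, Cd4, Cd8a or Cd8b1 (0.48). S100a6, a gene of memory T cells, was at 363, 348 and 88.4 (3.94, interval 2.92 to 5.44). Klrk1 was at 155, 164 and 53 CPM, of which 1 Control cell held 11 of 27 UMIs, and its level in B cells ran alongside at 110, 67.5 and 33.5. In the interferon-gamma-type list 3 genes were higher (Ifng, Il2rb, Klrk1) and 3 lower (Cd27, Xcl1, Slamf7) in IR over Control, of 13 measured. Cd27, the marker of that type, was at 159, 205 and 446 CPM (IR over Control 0.460, interval 0.392 to 0.541), and under 2-fold without those chains (log2 ratio -0.85). In the IL-17-type list 4 of 5 measured of 18 genes (Maf, Rora, Tmem176a and Tmem176b) were higher in IR over Control (median 1.24) and in IR+HSO over Control (1.12), against 3 of 5 and 4 of 5 in other T cells. Tmem176b, a membrane protein also found in myeloid cells, was at 85.3, 73.4 and 9.82 CPM in members, and Tmem176a at 70.1, 56.5 and 0. B cells held Tmem176a at 340, 240 and 34.9 CPM, above the members in every library, and the part of free RNA in the members' values was not tested.

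Ccl4 and Xcl1, chemokines of activated cytotoxic cells, were lower in the irradiated libraries only with 1 Control cell included. Ccl4 was at 26.6, 17.8 and 601 CPM in IR+HSO, IR and Control, and 295 of the 306 Control UMIs lay in that cell, which also held 184 of the 261 Control UMIs of Xcl1, 6 Trdc UMIs and 9 CD3 UMIs. Without the cell with most UMIs in each library Ccl4 was at 17.5, 16.1 and 22.0 CPM and Xcl1 at 105, 120 and 154, and neither reached 2-fold.

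Among receptor chains, Trgc1 was higher in IR over Control, at 125, 120 and 45.2 CPM in IR+HSO, IR and Control (IR over Control 2.66, interval 1.73 to 4.26). It was also higher in other T cells, at 24.7, 42.6 and 1.74 CPM, so the difference was not particular to members. Trgc2 was at 135, 125 and 145 (0.858, interval 0.663 to 1.12) and Trgc4 at 173, 136 and 141, and neither reached 2-fold. The first exons of Trgc1 and Trgc2 were 97.3% identical, and only first exons were compared. How well their UMIs are told apart was not tested. Cd8a and Cd8b1 were lower in IR over Control, Cd8b1 at 47.3, 32.6 and 214 CPM (0.152, interval 0.112 to 0.206), as in other T cells, where it was at 82.4, 67.9 and 392. Sox4, a transcription factor of immature lymphocytes, was lower, at 17.4, 35.2 and 132 CPM in members (IR over Control 0.268, interval 0.191 to 0.375), against 14.2, 24.1 and 29.9 in other T cells. Myb, a transcription factor of progenitors, was at 15.8, 23.9 and 159 (0.150, interval 0.105 to 0.214), and Ccr9, a thymus and gut homing receptor, at 36.4, 32.6 and 122. Dapl1, a gene of naive T cells, was at 14.7, 54.3 and 236.

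**Figure D4:**
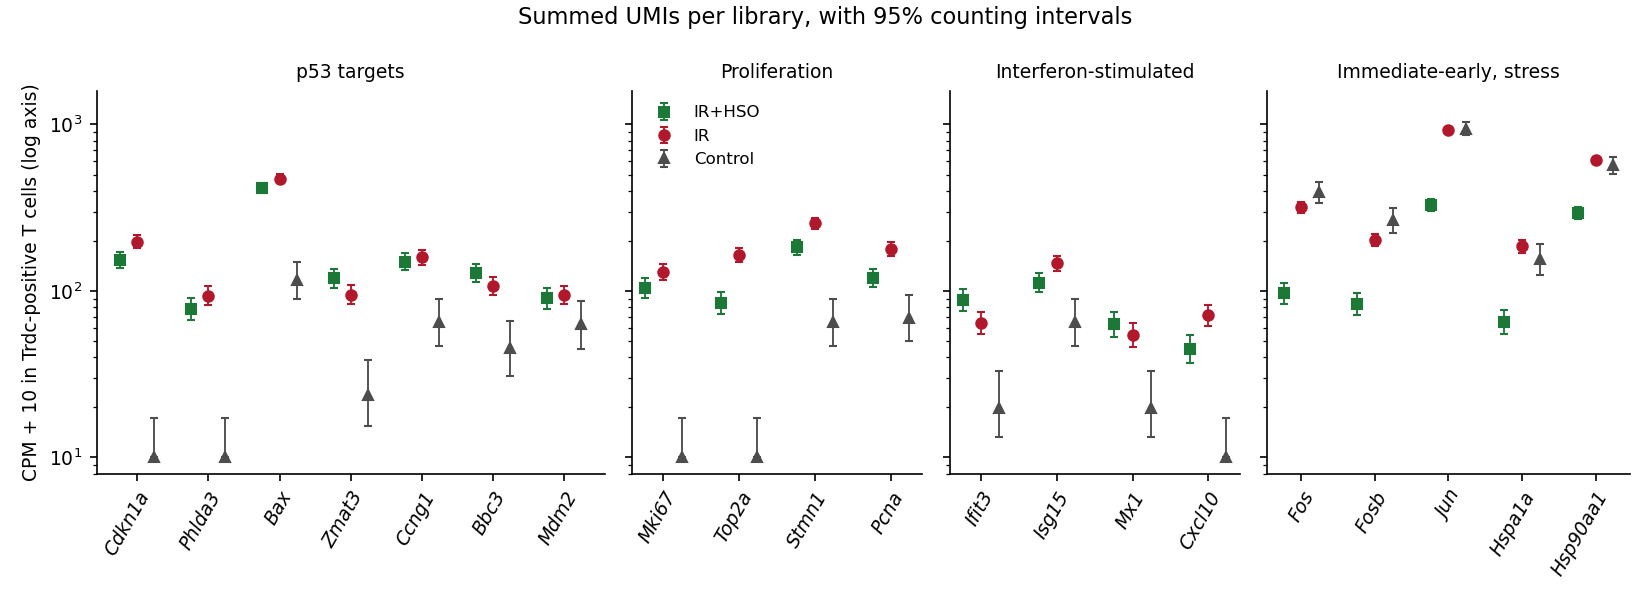
Summed level (CPM + 10, log axis, so that 0 can be shown) of named p53 target, proliferation, interferon-stimulated and immediate-early genes in members of the IR+HSO, IR and Control libraries, with exact 95% Poisson intervals of counting error. Cdkn1a, Phlda3, Mki67, Top2a and Cxcl10 are at 0 CPM in Control, and Fos, Fosb, Jun, Hspa1a and Hsp90aa1 are lowest in IR+HSO.

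Between IR+HSO and IR, 6 of 18 measured among 19 immediate-early and stress genes were lower in IR+HSO and none higher (median log2 ratio -0.75, against -0.01 over all genes). In other T cells 4 of 18 were lower (-0.45), and in NK cells 2 of 18, Hspa1a and Hsp90aa1 (-0.13, against -0.06 over all genes). Fos, a transcription factor induced within minutes of stimulation, was at 86.9 CPM in IR+HSO members and 308 in IR members (0.283, interval 0.236 to 0.336), and 381 in Control. Jun, its partner, was at 319 in IR+HSO and 919 in IR (0.347, interval 0.316 to 0.381), and 933 in Control. For Fos and Jun, IR and Control thus lay close together and IR+HSO apart. Hspa1b, a heat shock protein, was at 104 in IR+HSO and 258 in IR (0.405, interval 0.342 to 0.477), and 218 in Control. Fosb, Hspa1a and Hsp90aa1 were the other 3 genes, of which Hsp90aa1 (log2 ratio -1.05) was under 2-fold with at least 2 Trdc UMIs (-0.95). Fos in B cells was at 708 CPM in IR+HSO and 930 in IR, and 402 in Control. Other genes of the list did differ between IR and Control. The largest log2 ratios of IR over Control in either direction were 1.83 for Egr1 and 1.16 for Ddit4, and the next was 0.53, for Nfkbia.

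Between the same libraries none of 16 p53 targets passed 2-fold (median log2 ratio -0.03), none of 11 proliferation genes (-0.48), none of 19 interferon-stimulated genes (-0.17) and none of 7 measured fatty acid and PPAR genes (-0.04). Cdkn1a was at 144 CPM in IR+HSO and 187 in IR (0.769, interval 0.657 to 0.898), and Top2a at 75.0 and 155 (0.485, interval 0.395 to 0.591; log2 ratio of CPM + 10 of -0.95). In other T cells 6 of 13 proliferation genes were lower in IR+HSO, with Top2a at 51.1 in IR+HSO and 150 in IR. Whether members and other T cells differ in this was not tested.

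Single genes apart between the irradiated libraries included Igfbp4, a gene of naive T cells, at 192 CPM in IR+HSO and 438 in IR (0.437, interval 0.386 to 0.494), and Pdcd1, which encodes the inhibitory receptor PD-1, at 38.6 and 13.9 (2.77, interval 1.80 to 4.35), with 38.9 and 13.0 in other T cells. Neither difference reached 2-fold in every set of members. The log2 ratio of Igfbp4 was -1.15, against -0.90 at 4 or more Trdc UMIs and -0.59 without Trac, Cd4, Cd8a or Cd8b1, and that of Pdcd1 was 1.02, against 0.64 and 0.47 in these sets and 0.90 with called doublets removed. Dapl1 was lower in IR+HSO at 14.7, against 54.3 in IR (0.270, interval 0.171 to 0.412), but among members with at least 4 Trdc UMIs its log2 ratio was 0.07. Fkbp5, a glucocorticoid-induced gene, was at 252 in IR+HSO and 136 in IR (1.85, interval 1.60 to 2.15), under 2-fold. Dcn, a gene of stromal cells, was at 12 in IR+HSO and 228 in IR, of which 1 IR cell held 172 of 524 UMIs, and the log2 ratio was -3.44 with that cell and -2.97 without it. The same cell held 174 of the 237 IR UMIs of Mgp, another stromal gene.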

How the data were processed

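Each library is a suspension of mouse spleen cells profiled on the 10x Genomics platform. The authors deposited a matrix of raw UMI counts for each library; its header names Cell Ranger 7.0.1, and the genome build is GRCm39 per the submitters' processing notes; other steps are not given in the sources used here. The deposited counts were used without ambient RNA correction, and cells of other types (B cells with Cd79a or Cd79b, NK cells with Ncr1, both with 0 CD3 UMIs) were measured as background. The B cell set was not required to lack Ncr1 and can hold NK cells with a Cd79a or Cd79b UMI. Its make-up differed between libraries, with plasma cell genes at 469580 CPM in IR+HSO, 489944 in IR and 32785 in Control. Its CPM values are thus not a like background across libraries. Shares have exact Clopper-Pearson 95% intervals, ratios of 2 UMI counts exact conditional ones, and both cover counting error only. For a fold against a library with 0 UMIs, 3 UMIs in that library stood for the upper limit. Doublets were called with a nearest-neighbour score against simulated doublets, at 0.8% per 1000 cells, and removed only as an alternative.

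The 2 sums of each library (members and other T cells, or members and NK cells) come from the same library, so the library was a block in edgeR 4.0.16 (R 4.3.3; TMM scaling, its expression filter, quasi-likelihood test). DESeq2 1.42.0 was an alternative. The 3 libraries differ in treatment, so p-values measure the spread of a cell set's difference over these libraries, and the labels do not say how many mice each holds. Both steps were run on simulated counts with changes put in. These counts had no library effect and no cell-to-cell spread. They therefore do not test the use of the library as a block or the spread of the real data. The members, gene lists and tests were chosen with earlier results of these data known. Genes were named by rule: the rule's own genes and markers, the 4 measured genes of each list with the largest ratio in IR over Control, all receptor chain and gamma-delta programme genes, the 10 highest and 10 lowest ratios of each comparison, and the largest fold changes past the threshold. The text gives part of them. Ccng1, Polk, Mdm2, Cd6, Fosb, Hspa1b, Hsp90aa1 and Il7r were named outside the rule, after their values were seen.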

Additional observations from a re-analysis of the deposited data

How the results depend on the processing

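The order of the shares of T cells, with both irradiated libraries above Control, held under every alternative, whereas the order of the 2 irradiated libraries did not. The shares in IR+HSO, IR and Control were 4.99%, 4.61% and 2.78% with at least 2 Trdc UMIs, 4.49%, 3.62% and 1.12% for members without Trac, Cd4, Cd8a or Cd8b1, and 4.65%, 4.99% and 2.64% after thinning to 1000 UMIs. With at least 4 Trdc UMIs, chosen after seeing the data, they were 2.83%, 2.76% and 2.02%. With called doublets removed the IR share was 7.89%.

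Counts of genes past 2-fold moved with the pseudocount, the filter and the members. In IR over Control, 193 higher became 488 without Trac, Cd4, Cd8a or Cd8b1, 316 with a pseudocount of 1, 105 with a filter of 50 CPM and 342 with no filter; 46 lower became 577, 101, 24 and 92, and 83 with at least 2 and 155 with at least 4 Trdc UMIs. In IR+HSO over IR, 36 higher became 57 without Trac, Cd4, Cd8a or Cd8b1 and 22 without the member with most UMIs of each gene (chosen after seeing the data); 39 lower became 63 without those chains, 60 with a pseudocount of 1 and 78 with no filter. In IR+HSO over Control, 242 higher became 489, 380, 122 and 404, and 76 lower became 552, 130, 45 and 131 under the same 4 alternatives as in IR over Control, and 136 and 187 with at least 2 and at least 4 Trdc UMIs. The set without those chains has 25 Control cells, and the cause of the larger counts was not tested. Dapl1 in IR+HSO over IR changed sign at 4 Trdc UMIs (log2 ratio 0.07), and of 664 values of single genes under the alternatives 105 others moved beyond the counting interval.

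Against other T cells, edgeR's 120 higher genes became 219 with any UMI as the filter, 292 with at least 2 and 315 with at least 4 Trdc UMIs, 242 without alpha-beta chains, and between 161 and 190 with 1 library left out; the 58 lower became 246, 235, 309, 198 and between 89 and 159. With no replicate block for the library 1 higher gene (Cd7) and 0 lower genes passed by edgeR, with 476 at an unadjusted p under 0.05. Against NK cells the 976 higher genes became 566 with DESeq2's Wald test, 436 without alpha-beta chains, 473 with no block, and between 386 and 1113 with 1 library left out; the 980 lower became 546, 489, 542 and between 454 and 1178, 1510 with any UMI and 636 with at least 4 Trdc UMIs. Trac against NK cells turned to -8.39 without alpha-beta chains. Leaving out a library left 2 per arm. No call named in the text was lost against NK cells otherwise, whereas against other T cells Slamf7, Serpinb6b and H2-Ab1 were lost with doublets removed, Trgc1, Rora and Tnfrsf4 with DESeq2, Scart2 and Rora without alpha-beta chains, Ctla4 and Rora without IR+HSO, and Scart1 and Rora without IR. No paired analysis was possible between groups because each group is 1 library, so those ratios have no replicate check. Depth limits the Control values most: with 98 members, 1 Control UMI is 1.96 CPM, and a gene at 0 there could be at 5.89 CPM.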

Other observations

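Gamma chain RNA was also higher over all T cells of the irradiated libraries. Summed over all T cells, members and others together, Trgc1 was at 34.9 CPM in IR+HSO, 50.1 in IR and 3.57 in Control, Trgc2 at 34.6, 38.4 and 10.8, Trgc4 at 33.7, 34.7 and 9.14 and Trgv2 at 30.1, 24.3 and 8.56, while Trdc was at 75.5, 74.7 and 44.5. B cells of these libraries held any gamma segment in 12.9%, 5.83% and 0.254% of cells, and the part of free RNA in the difference was not tested.

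Il7r, the IL-7 receptor chain that resting T cells depend on, was at 1014 CPM in IR+HSO, 824 in IR and 564 in Control members. Of 11 measured cytokine receptor genes, 4 were higher in IR+HSO over Control, namely Il2ra, Il2rb, Il18r1 and Il18rap, against 6 of 11 in other T cells. Zbtb16, the transcription factor PLZF of innate-like T cells, was at 19.0, 15.2 and 0 CPM in members, under the filter of 20 CPM.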
